A study of Homo sapiens with 8 samples.

Results

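The 35 genes described here encode the folding and degradation machinery of the endoplasmic reticulum (ER) and the amino acid stress programme that is run by the transcription factors ATF4 and CHOP. They were taken by symbol from a fixed list, and all 35 were found among the 61228 gene rows of the deposited count tables. RNA was measured in the lung cancer lines H1975 and HCC44, both of human origin, labelled wild type (WT) and grown in RPMI-1640. Each line received either the solvent DMSO or ACBI1 at 1 mM for 96 h, which gives 4 groups of 2 libraries. The dose is printed in the unit of the labels, is far above concentrations usual for such compounds, and is therefore uncertain. ACBI1 is a bifunctional compound that brings the VHL ubiquitin ligase to SMARCA2, SMARCA4 and PBRM1, which are parts of SWI/SNF chromatin remodellers, and so has them degraded. Each line stands for 1 genetic background, and nothing in the labels says that the replicates were separate cultures, so p-values measure the spread between these libraries, which may be technical. The title of HCC44 ACBI1 replicate 2 reads ACBI, while the treatment field of the same library reads ACBI1.

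When unfolded proteins build up in the ER, the sensors IRE1, ATF6 and PERK start the unfolded protein response. IRE1 splices the XBP1 messenger, ATF6 is cut to release a transcription factor, and both raise chaperones and degradation genes, while PERK phosphorylates the initiation factor eIF2. Phosphorylated eIF2 lowers general translation but favours that of ATF4, and other kinases reach the same point when amino acids are short, which is the integrated stress response. Gene counts do not separate the spliced from the unspliced XBP1 messenger, and ATF4 is controlled largely at translation, so neither activity is read directly here.

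Several of the ER members carry short upstream motifs. The motifs are known elements of ER and amino acid stress genes, so the shares below are no independent test of the list. In the RefSeq promoter table of build GRCh38.p14, 33 of the 35 members had an entry, and the 250 bases before each start were searched on both strands for 4 motifs, any listed start of a gene counting. The ER stress element ERSE, written as CCAAT and CCACG with 9 bases of any kind between them, was found in 7 of the 33 members against 25 of all 27305 genes, that is 0.0916%. Of the 13 chaperones and folding enzymes with an entry, 6 held it, and the seventh gene was XBP1. The related element ERSE-II, ATTGG and CCACG with 1 base of any kind between them, was found in 3 members against 18 of all genes, 0.0659%. The sites are printed with 5 bases on each side, on the strand on which the motif letters run, with the fixed letters in capitals, to show the shared blocks beside the spacers, which differ from gene to gene.

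HSPA5, ERSE, chr9:125241386-125241414, minus strand: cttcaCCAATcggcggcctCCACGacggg

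HSP90B1, ERSE, chr12:103930211-103930239, plus strand: cctgaCCAATcggaaggagCCACGcttcg

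HSP90B1, ERSE, chr12:103930316-103930344, minus strand: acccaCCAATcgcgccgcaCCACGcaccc

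PDIA6, ERSE, chr2:10812848-10812876, minus strand: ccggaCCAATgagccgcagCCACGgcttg

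CALR, ERSE, chr19:12938379-12938407, minus strand: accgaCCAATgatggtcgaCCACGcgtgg

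CANX, ERSE, chr5:179698773-179698801, plus strand: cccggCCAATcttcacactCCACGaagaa

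CRELD2, ERSE, chr22:49918549-49918577, minus strand: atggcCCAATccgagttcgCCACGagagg

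XBP1, ERSE, chr22:28800598-28800626, minus strand: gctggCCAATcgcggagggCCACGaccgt

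HYOU1, ERSE-II, chr11:119057375-119057395, plus strand: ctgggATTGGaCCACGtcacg

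HYOU1, ERSE-II, chr11:119057269-119057289, plus strand: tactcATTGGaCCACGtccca

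HERPUD1, ERSE-II, chr16:56932020-56932040, plus strand: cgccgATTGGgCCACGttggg

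SDF2L1, ERSE-II, chr22:21642109-21642129, minus strand: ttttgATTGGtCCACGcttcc

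The XBP1-binding core TGACGTGG was found in HYOU1 alone among the members, where it overlaps the first of the ERSE-II sites above, against 213 of all genes, 0.78%. The ATF4 composite element, searched as TGATGNAAN, was found in ASNS, CHAC1 and HERPUD1, 3 of the 33 members, against 1057 of all genes, 3.87%. Its sites are shown because ASNS and CHAC1 are the members of the ATF4 branch that hold it.

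ASNS, ATF4 element, chr7:97872463-97872481, minus strand: aggcaTGATGaAActtccc

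CHAC1, ATF4 element, chr15:40953256-40953274, minus strand: aggagTGATGcAAcggcag

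HERPUD1, ATF4 element, chr16:56931960-56931978, minus strand: cgggcTGATGcAAcccgcc

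A match is a stretch of letters and no measurement of binding, and no match says only that these letters are not in the searched window. The whole searched window of HSPA5, chr9:125241344-125241593 on the minus strand and read toward the start, is printed because it shows the ERSE, in capitals, lying 66 to 48 bases before the start.

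HSPA5 upstream: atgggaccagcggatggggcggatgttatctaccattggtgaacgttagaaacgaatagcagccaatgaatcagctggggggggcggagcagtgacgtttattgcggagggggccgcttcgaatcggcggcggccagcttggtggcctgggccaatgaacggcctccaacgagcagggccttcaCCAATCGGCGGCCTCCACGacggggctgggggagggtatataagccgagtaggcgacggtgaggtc

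The libraries held 62467286 to 70455517 counts on genes, and single members held 276 to 209857 counts in a library. The epithelial markers KRT8, KRT18, KRT19, EPCAM and CDH1 were all above 1 CPM in every group. Their summed level was 2152 to 2269.5 CPM in H1975 DMSO, 1035 to 1204 in H1975 ACBI1, 517 to 521 in HCC44 DMSO and 449 to 536 in HCC44 ACBI1. The lung adenocarcinoma markers NKX2-1, NAPSA and SFTPB summed to 20.2 to 29.5 CPM in H1975 and to at most 0.541 in HCC44. The 4 immune markers summed to at most 0.932 CPM and the 3 endothelial markers to at most 4.01 CPM. The 4 fibroblast markers summed to 72.1 to 90.4 CPM in HCC44 DMSO and to 204 to 408 in HCC44 ACBI1, nearly all of it COL1A1, with COL1A2 and DCN at 0 in the latter group, and to 48.3 to 71.3 and 23.5 to 29.2 CPM in H1975. The part of these marker levels in the results below was not tested.

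All 35 members passed the filter on low counts, and their levels are given as CPM on library sizes scaled with TMM factors. In H1975, 19 members fell with ACBI1 and 2 rose, SDF2L1 and ASNS, by edgeR's quasi-likelihood test at a Benjamini-Hochberg adjusted p under 0.05. In HCC44, 24 fell and none rose by that test or by DESeq2, while ATF5, CHAC1 and PSAT1, 3 members, were higher at an unadjusted edgeR p under 0.05. Of all 21307 tested genes, 16.7% were called lower and 14.6% higher in H1975, and 17.4% and 17.5% in HCC44. Because the members are well expressed, the closer background is the 10271 tested genes that average 10 CPM or more over the 8 libraries, of which 24.2% were called lower and 14% higher in H1975, and 25.9% and 19.1% in HCC44. The median log2 fold change of the members was -0.35 in H1975 and -0.47 in HCC44, beside -0.01 and 0.01 over all tested genes. The median over genes averaging 10 CPM or more, the closer background, was not computed. In bulk RNA a smaller share of cells that express a gene and less RNA of it per cell cannot be told apart.

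Many of the H1975 falls were small, and their number depended on the scaling and on single libraries. It was 8 with library totals in place of TMM factors, a scaling that moved the median gene from -0.014 to 0.18 and made 72.3% of all H1975 calls rises, against 46.6% with TMM factors (60.5% against 50% in HCC44). It was 9 without DMSO replicate 2, 7 without ACBI1 replicate 1 and 10 without ACBI1 replicate 2. The calls of SDF2L1, ASNS, HSP90B1, PDIA3, XBP1, ATF5, DDIT4, PHGDH and SHMT2 held in H1975 under every alternative tried, and those of the other 12 called members were all lost without ACBI1 replicate 1. In HCC44 the calls of HYOU1, CRELD2, PDIA6, CALR, HERPUD1, EDEM1, TRIB3 and VLDLR were lost under at least 1 alternative, and the other 16 held under all of them.

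**Figure D1:**
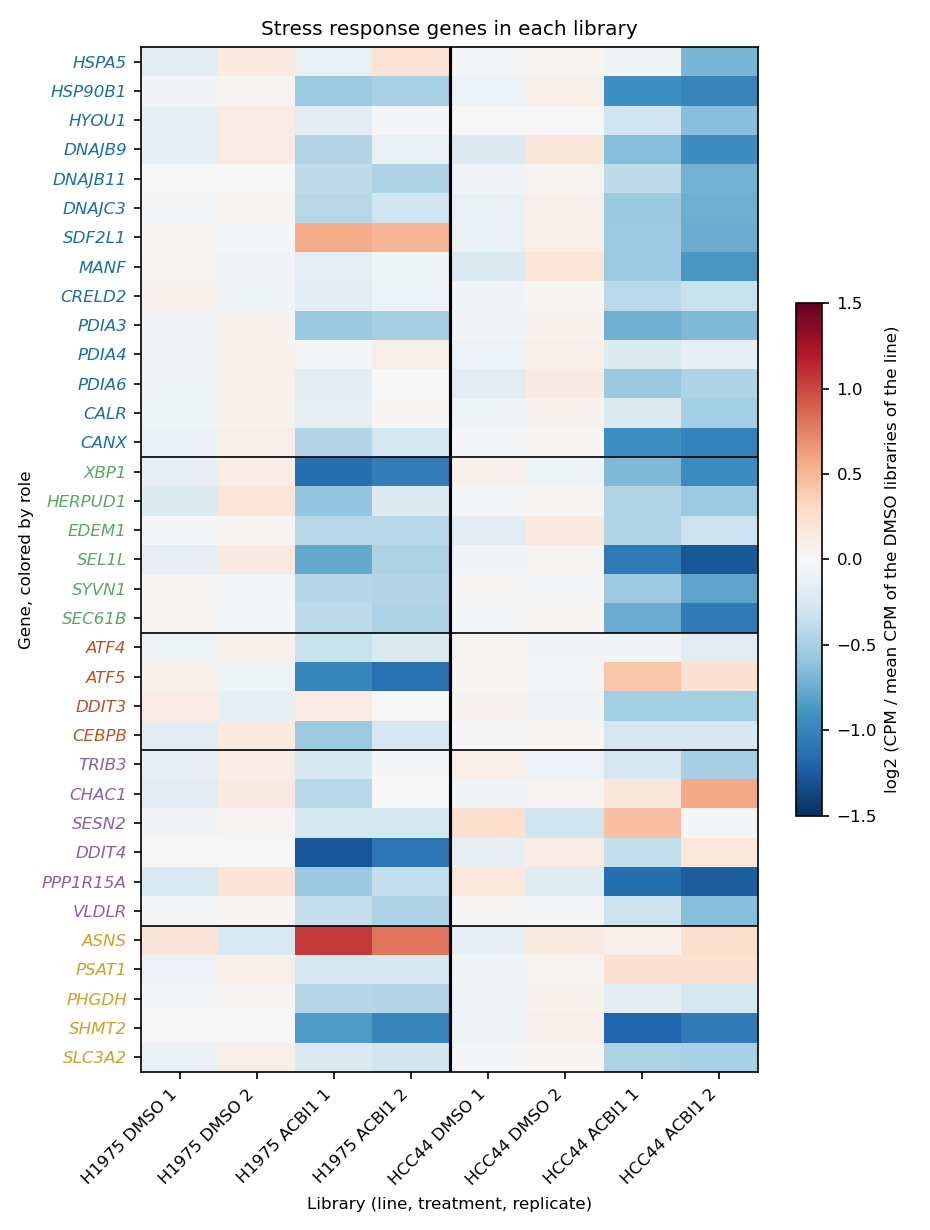
Each row is a member, colored by role, and each column a library. Color gives log2 of CPM over the mean of the line's DMSO libraries. The ER rows at the top are lower in both HCC44 ACBI1 libraries for all 20 genes, and the H1975 ACBI1 libraries hold a mixture of lower and unmoved rows, with SDF2L1 and ASNS higher.

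The members split into 20 ER genes and 15 genes of the ATF4-CHOP branch. In HCC44, 18 of the 20 ER genes fell and all 20 had both ACBI1 libraries below both DMSO libraries, an order found in 32.7% of all tested genes. In H1975, 10 of the 20 fell and SDF2L1 rose, and 12 had both ACBI1 libraries below both DMSO libraries, against 34.2% of all tested genes. This order was not counted among genes averaging 10 CPM or more, the closer background. Of the 15 ATF4-CHOP genes, 9 fell and ASNS rose in H1975, while 6 fell in HCC44. In H1975 and HCC44, 50% and 90% of the ER genes and 60% and 40% of the ATF4-CHOP genes fell. Among genes averaging 10 CPM or more the shares were 24.2% and 25.9%. Across both lines, 13 members fell in each: HSP90B1, DNAJB11, DNAJC3, PDIA3, CANX, XBP1, EDEM1, SEL1L, SYVN1, SEC61B, PPP1R15A, VLDLR and SHMT2. The share of all tested genes that fell in both lines was not computed, so this count has no background. The H1975 calls of DNAJC3, CANX and VLDLR were lost with DESeq2, and that of PPP1R15A with RLE factors. HSPA5, PDIA4, CHAC1 and SESN2 were called in neither.

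HSPA5 encodes BiP, the main Hsp70 chaperone of the ER lumen, and was the most abundant member per kilobase of exon in every group, at 359 CPM per kb in H1975 DMSO and 828 in HCC44 DMSO. The gene lies at chr9:125234853-125241330 on GRCh38. Its levels were 1256 and 1551 CPM in the H1975 DMSO libraries and 1299 and 1623 CPM with ACBI1. In HCC44 they were 3182.5 and 3289 CPM with DMSO and 3144 and 2007 CPM with ACBI1. The H1975 groups overlapped, while in HCC44 both ACBI1 libraries were lower, replicate 1 only slightly and replicate 2 clearly. Neither change was called by edgeR, with log2 fold changes of 0.06 ± 0.21 (SE, adjusted p 0.865) and -0.33 ± 0.21 (adjusted p 0.259). Without ACBI1 replicate 1, and so with replicate 2 as the only treated library, the HCC44 value was -0.69. The HCC44 fall thus lay mainly in replicate 2, as replicate 1 was near the controls (3144 CPM against 3182.5 and 3289).

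HSP90B1, or GRP94, is the Hsp90 chaperone of the ER and lies at chr12:103930107-103953645. It had 382 and 406 CPM in H1975 DMSO, 271 and 281 in H1975 ACBI1, 1309.8 and 1482 in HCC44 DMSO and 737 and 704 in HCC44 ACBI1. The groups did not overlap in either line. It fell by 0.51 ± 0.09 on the log2 scale in H1975 (edgeR adjusted p 0.00178), and in HCC44 fell by 0.95 ± 0.09 (adjusted p 2.9e-05). The difference between the lines was -0.44 ± 0.13 (adjusted p 0.0347) and lost its call without H1975 DMSO replicate 1, either H1975 ACBI1 library, HCC44 DMSO replicate 2 or HCC44 ACBI1 replicate 2, with adjusted p-values of 0.0726 to 0.158.

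CANX, the membrane lectin calnexin that holds glycoproteins while they fold, fell by about as much as HSP90B1 in HCC44. It had 467 and 532 CPM in H1975 DMSO and 369 and 415 with ACBI1, and 1004 and 1046 CPM in HCC44 DMSO and 541 and 508 with ACBI1. The treated libraries were lower in both lines, with a narrow gap between the groups in H1975 and a wide one in HCC44. The log2 fold changes were -0.35 ± 0.10 (edgeR adjusted p 0.0188) and -0.97 ± 0.10 (adjusted p 4.38e-05), and they differed by -0.62 ± 0.14 (adjusted p 0.0109). The difference was not called without H1975 ACBI1 replicate 2 or HCC44 DMSO replicate 2. PDIA3, the disulfide isomerase that works with calnexin on glycoproteins, went from 393 and 419.6 to 277 and 287 CPM in H1975 and from 586 and 630.5 to 368 and 383 CPM in HCC44. Its groups were well apart in both lines, and it fell by 0.53 ± 0.08 (adjusted p 0.00107) and 0.70 ± 0.08 (adjusted p 0.000132).

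SDF2L1, a partner of the ER chaperone complex around BiP, was the only member called in opposite directions. It had 52.0 and 50.04 CPM in H1975 DMSO and 75.3 and 72.7 with ACBI1, and 35.6 and 41.3 CPM in HCC44 DMSO and 26.3 and 23.0 with ACBI1. The pairs of libraries lay close together and no groups of a line overlapped. It rose by 0.54 ± 0.11 in H1975 (edgeR adjusted p 0.00371) and fell by 0.64 ± 0.11 in HCC44 (adjusted p 0.00108). The difference of -1.18 ± 0.15 (adjusted p 0.000791) was called in every alternative that gives it a value.

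The other 9 chaperones and folding enzymes are the Hsp110-type HYOU1, the J-domain cochaperones DNAJB9, DNAJB11 and DNAJC3, the secreted ER proteins MANF and CRELD2, the isomerases PDIA4 and PDIA6, and CALR, the soluble relative of calnexin. Of the 14 genes in all, 5 fell and SDF2L1 rose in H1975, at a median of -0.11, and 12 fell in HCC44, at a median of -0.59. The shares that fell were 35.7% and 85.7%, against 24.2% and 25.9% of genes averaging 10 CPM or more. In H1975 only DNAJB11 (-0.42) and DNAJC3 (-0.35) fell among those not yet described, and PDIA4, PDIA6, CALR, HYOU1, MANF, CRELD2 and DNAJB9 gave values from -0.27 to 0.04 that were not called. In HCC44 the falls ran from CALR (-0.35, adjusted p 0.0308) and CRELD2 (-0.37) through HYOU1 (-0.46), PDIA6 (-0.51), DNAJB11 (-0.54), DNAJC3 (-0.64) and MANF (-0.70) to DNAJB9 (-0.78, adjusted p 0.00442). PDIA4 was at -0.16 there and was not called (adjusted p 0.211). More than 20% of the exon bases of DNAJB11 (23.2%) and PDIA6 (25.2%) overlap another gene, so their counts are less certain without a stated strand setting.

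The summed level of the 14 chaperones was 4428 and 5018 CPM in H1975 DMSO and 4077 and 4652 with ACBI1. In HCC44 it was 9236 and 9903 CPM with DMSO and 7441 and 5943 with ACBI1. The H1975 sums overlapped and the HCC44 sums did not, and HSPA5 alone made up a large share of each. Within the HCC44 ACBI1 pair, replicate 1 was the higher for 26 of the 35 members, while in the other 3 groups it was the higher for 10 or 11. The same count over all tested genes was not made, so whether this belongs to the members is not known.

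**Figure D2:**
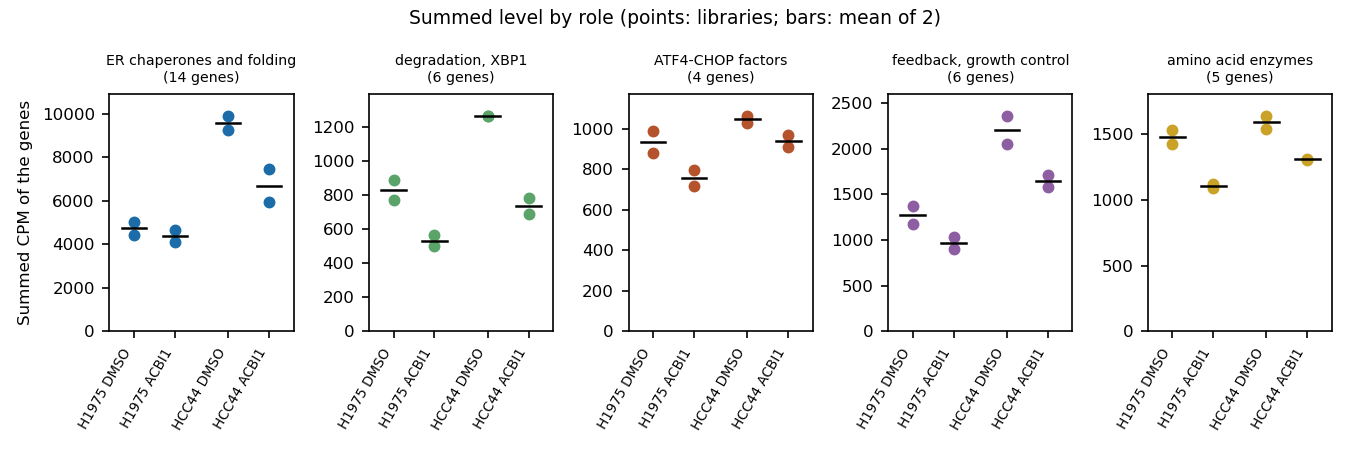
Summed CPM of the members of each role in each library, with points for libraries and bars for the mean of 2. The chaperone panel shows the HCC44 DMSO libraries near 9236 and 9903 CPM and the ACBI1 libraries at 7441 and 5943 CPM. In every other panel, the degradation panel among them, the treated libraries are below the controls in both lines.

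The 6 genes of ER-associated degradation, translocation and XBP1 gave 5 falls in H1975 (median -0.43) and 6 in HCC44 (median -0.73). These shares, 83.3% and 100%, stand beside 24.2% and 25.9% of genes averaging 10 CPM or more. XBP1 encodes the factor that drives chaperone and degradation genes after IRE1 splicing, and lies at chr22:28794555-28800597. It had 232 and 273 CPM in H1975 DMSO, 116 and 123 with ACBI1, 462 and 425 in HCC44 DMSO and 281 and 228 with ACBI1. In both lines each treated library was far below each control. XBP1 fell by 1.08 ± 0.12 in H1975 (edgeR adjusted p 0.00011) and fell by 0.80 ± 0.12 in HCC44 (adjusted p 0.000433), and the difference of 0.28 ± 0.16 was not called (adjusted p 0.267).

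SEL1L, the adaptor of the HRD1 ubiquitin ligase in the ER membrane, had 214 and 258 CPM in H1975 DMSO, 138 and 169 with ACBI1, 297 and 315 in HCC44 DMSO and 146 and 127 with ACBI1. Treated libraries were lower than controls in both lines, with the wider gap in HCC44. SEL1L fell by 0.62 ± 0.12 (edgeR adjusted p 0.00396) and 1.16 ± 0.13 (adjusted p 6.91e-05), and the difference of -0.54 ± 0.18 just missed the threshold (adjusted p 0.0544) and passed it in 9 alternatives, DESeq2 among them. SYVN1, the HRD1 ligase itself, fell by 0.44 and 0.67, and EDEM1, a lectin that hands misfolded glycoproteins to degradation, by 0.42 and 0.39. SEC61B, a subunit of the translocation channel, fell by 0.42 and 0.90. HERPUD1, which helps assemble the HRD1 complex, was at -0.37 in H1975 (adjusted p 0.0779, not called) and fell by 0.50 in HCC44 (adjusted p 0.0233).

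Of the 4 transcription factors of the ATF4-CHOP branch, 3 fell in H1975 and 1 in HCC44. Among genes averaging 10 CPM or more, 24.2% and 25.9% were called lower, so the HCC44 count lies near the background. ATF4 had 490 and 541 CPM in H1975 DMSO and 409 and 443 with ACBI1, and 671 and 635 CPM in HCC44 DMSO and 635 and 583 with ACBI1. The groups did not overlap in either line, but the gap in H1975 was no wider than the spread of its DMSO pair, and in HCC44 the higher treated library nearly met the lower control. It fell by 0.28 ± 0.09 in H1975 (edgeR adjusted p 0.0413) and was at -0.10 ± 0.09 in HCC44 (adjusted p 0.439). The H1975 call of ATF4 was lost with DESeq2 (adjusted p 0.139), RLE factors, upper-quartile factors and library totals. CEBPB, a bZIP factor that partners CHOP, fell by 0.39 in H1975 and was at -0.25 in HCC44 (adjusted p 0.136). The H1975 call of CEBPB was lost with DESeq2 (adjusted p 0.0606), RLE factors, upper-quartile factors and library totals.

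ATF5, an ATF4-related factor translated by the same route, had the largest called difference in response among the members. It had 30.4 and 27.6 CPM in H1975 DMSO and 14.7 and 13.4 with ACBI1, and 32.8 and 31.5 CPM in HCC44 DMSO and 42.8 and 37.3 with ACBI1. The groups did not overlap in either line, with the treated libraries lower in H1975 and higher in HCC44. It fell by 1.05 ± 0.12 in H1975 (edgeR adjusted p 0.000135), was at 0.32 ± 0.12 in HCC44 (adjusted p 0.0535), and the difference of 1.37 ± 0.16 was called (adjusted p 0.00053). The HCC44 value was called as a rise with upper-quartile factors, library totals, 1 CPM in 2 libraries and the replicate block, and without HCC44 ACBI1 replicate 2. Of its exon bases, 23.7% overlap NUP62, IL4I1 and other genes, so reads may be shared.

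DDIT3 encodes CHOP, the factor linked to death under long ER stress. It had 66.6 and 55.9 CPM in H1975 DMSO and 66.9 and 61.5 with ACBI1, and 101 and 94.1 CPM in HCC44 DMSO and 68.4 and 68.3 with ACBI1. The H1975 groups overlapped, and in HCC44 both treated libraries were well below the controls. The log2 fold changes were 0.07 ± 0.10 (edgeR adjusted p 0.658) and -0.51 ± 0.10 (adjusted p 0.00297), with a difference of -0.58 ± 0.15 (adjusted p 0.0191) that was not called without HCC44 DMSO replicate 1. Other genes share 39.6% of its exon bases, among them MARS.

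**Figure D3:**
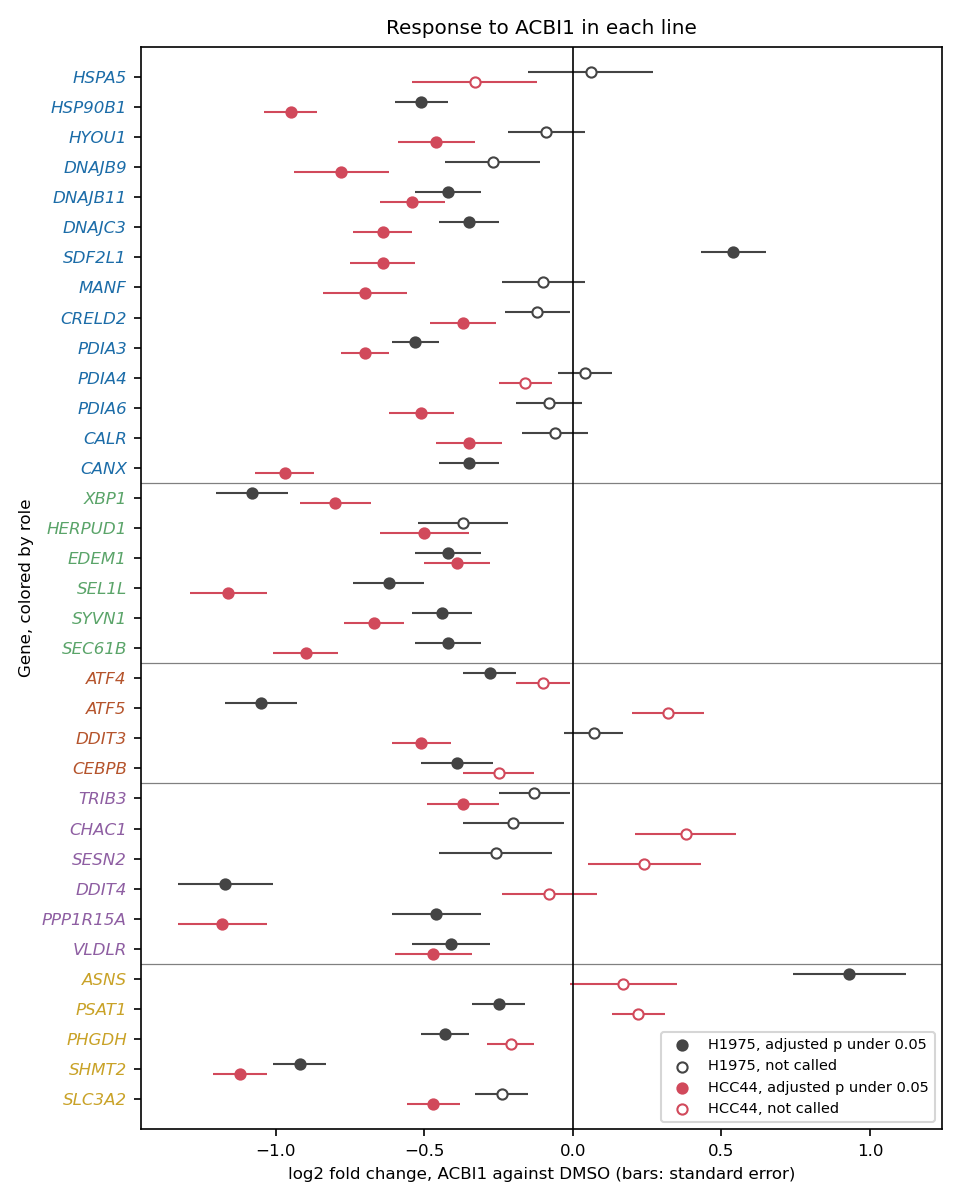
log2 fold change of ACBI1 against DMSO for each member, with standard errors, in H1975 (grey) and HCC44 (red). Filled points passed an adjusted p of 0.05 and open points did not. ER genes in the upper blocks lie left of 0 in HCC44, and SDF2L1 and ASNS are the filled points right of 0 in H1975.

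Of the 6 feedback and growth control genes, 3 fell in each line, PPP1R15A and VLDLR in both, DDIT4 in H1975 and TRIB3 in HCC44. That is 50% in each line, against 24.2% and 25.9% of genes averaging 10 CPM or more. In a list of 6 this is a gap of few genes. PPP1R15A, or GADD34, guides the phosphatase that reverses eIF2 phosphorylation. It had 262 and 350.1 CPM in H1975 DMSO, 208 and 238 with ACBI1, 739.9 and 582 in HCC44 DMSO and 302 and 279.7 with ACBI1. Treated libraries lay below controls in both lines, and the HCC44 gap was the larger. It fell by 0.46 ± 0.15 in H1975 (edgeR adjusted p 0.0441) and fell by 1.18 ± 0.15 in HCC44 (adjusted p 0.000291), with a difference of -0.73 ± 0.21 (adjusted p 0.0407). The difference was not called when H1975 DMSO replicate 1, H1975 ACBI1 replicate 2, HCC44 DMSO replicate 1 or either HCC44 ACBI1 library was left out.

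DDIT4, also called REDD1, restrains mTORC1 and is a known stress target. It had 262 and 264 CPM in H1975 DMSO and 109 and 124 with ACBI1, and 203 and 239.7 CPM in HCC44 DMSO and 172 and 248 with ACBI1. The H1975 treated libraries were below the controls by more than the spread of the pairs, and the HCC44 groups overlapped. It fell by 1.17 ± 0.16 in H1975 (edgeR adjusted p 0.000583), was at -0.08 ± 0.16 in HCC44 (adjusted p 0.756), and differed by 1.1 ± 0.22 (adjusted p 0.00852). DDIT4-AS1 shares 41.2% of its exon bases. TRIB3, a pseudokinase that dampens ATF4 and CHOP, was at -0.13 in H1975 (adjusted p 0.447) and fell by 0.37 in HCC44 (adjusted p 0.037). VLDLR, a lipoprotein receptor and reported ATF4 target, fell by 0.41 and 0.47.

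CHAC1, which degrades glutathione, and SESN2, a leucine-sensing stress protein, were called in neither line. CHAC1 had 41.2 and 50.5 CPM in H1975 DMSO and 34.3 and 45.7 with ACBI1, and 72.3 and 76.3 CPM in HCC44 DMSO and 83.3 and 110.3 with ACBI1. SESN2 had 122 and 129.9 CPM in H1975 DMSO and 105 and 105 with ACBI1, and 236 and 163 CPM in HCC44 DMSO and 273 and 198 with ACBI1. Both treated HCC44 libraries were above both controls for CHAC1, which was at 0.38 ± 0.17 (edgeR adjusted p 0.108), while SESN2 overlapped there. SESN2 was at -0.26 ± 0.19 in H1975 (adjusted p 0.322) and 0.24 ± 0.19 in HCC44 (adjusted p 0.367). It was called lower in H1975 with no filter (adjusted p 0.0483), with each line fitted alone (adjusted p 0.0324) and with the replicate block (adjusted p 0.00865), and higher in HCC44 with the block (adjusted p 0.0114). CHAC1 in HCC44 was called as a rise with library totals, no filter, the replicate block and without HCC44 ACBI1 replicate 1.

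The 5 genes of amino acid synthesis and transport gave 3 falls and the rise of ASNS in H1975, and 2 falls in HCC44. The shares that fell, 60% and 40%, stand beside 24.2% and 25.9% of genes averaging 10 CPM or more. With 5 genes these counts lie within a few genes of the background. SHMT2, the mitochondrial serine hydroxymethyltransferase that feeds one-carbon metabolism, lies at chr12:57229327-57234935. It had 409 and 403 CPM in H1975 DMSO, 225 and 204 with ACBI1, 316 and 350.1 in HCC44 DMSO and 146 and 160.4 with ACBI1. Treated libraries were close to each other and far below the controls in both lines. It fell by 0.92 ± 0.09 (edgeR adjusted p 7.77e-05) and by 1.12 ± 0.09 (adjusted p 1.48e-05), and the difference of -0.20 ± 0.13 was not called (adjusted p 0.329).

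PHGDH, the first enzyme of serine synthesis, had 191 and 196 CPM in H1975 DMSO and 143 and 143 with ACBI1. It fell by 0.43 ± 0.08 in H1975 (edgeR adjusted p 0.00278) and was at -0.21 ± 0.08 in HCC44 (adjusted p 0.0708). PSAT1, which follows PHGDH in the same route, had 369 and 415 CPM in H1975 DMSO and 327 and 333 with ACBI1, and 463 and 489.8 CPM in HCC44 DMSO and 556 and 552 with ACBI1. The PSAT1 libraries were lower with ACBI1 in H1975 and higher in HCC44, with no overlap. The log2 fold changes were -0.25 ± 0.09 (adjusted p 0.0499) and 0.22 ± 0.09 (adjusted p 0.0735), and the difference was 0.47 ± 0.12 (adjusted p 0.0232). The difference was not called with DESeq2, RLE factors or library totals, nor without H1975 DMSO replicate 2, either H1975 ACBI1 library or either HCC44 DMSO library. The HCC44 value was called as a rise with upper-quartile factors, library totals, 1 CPM in 2 libraries and the replicate block. The H1975 call of PSAT1 was lost with DESeq2 (adjusted p 0.184), RLE factors, upper-quartile factors and library totals. It was also lost with no filter, each line fitted alone and non-robust dispersion.

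ASNS, asparagine synthetase, is a classical ATF4 target and was the only member of this group that rose. It had 5.50 and 4.08 CPM in H1975 DMSO and 9.94 and 8.36 with ACBI1, and 13.4 and 16.3 CPM in HCC44 DMSO and 15.6 and 17.8 with ACBI1. The H1975 groups did not overlap, and the HCC44 groups did. It rose by 0.93 ± 0.19 in H1975 (edgeR adjusted p 0.00364), was at 0.17 ± 0.18 in HCC44 (adjusted p 0.511), and the difference of -0.77 ± 0.26 missed the threshold (adjusted p 0.0619) and passed it with DESeq2, RLE factors, library totals, no filter, the replicate block and without H1975 DMSO replicate 1. An overlapping gene with a row of its own, AC079781.5, shares 44.6% of the exon bases of ASNS on the same strand, and a counter of this kind can set such reads aside as ambiguous, so the level given may be partial. SLC3A2, the heavy chain of amino acid exchangers, was at -0.24 in H1975 (adjusted p 0.0568) and fell by 0.47 in HCC44 (adjusted p 0.00195).

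**Figure D4:**
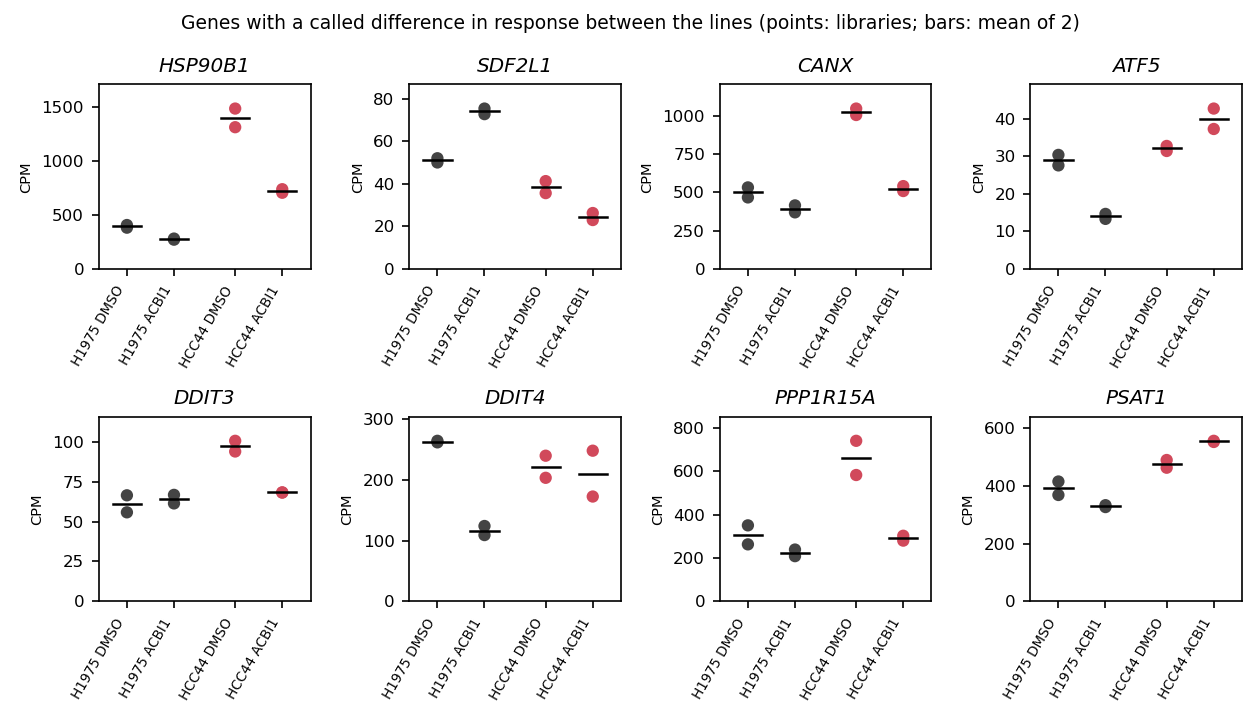
CPM of the 8 members with a called difference in response, with points for libraries and bars for the mean of 2. ATF5, DDIT4 and PSAT1 have the more positive response in HCC44, and SDF2L1 is higher with ACBI1 in H1975 and lower in HCC44.

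The response differed between the lines for 8 members, more positive in HCC44 for ATF5, DDIT4 and PSAT1 and more negative for HSP90B1, SDF2L1, CANX, DDIT3 and PPP1R15A. Of all tested genes 10.2% and 8.4% were called in these directions, and of those with at least 10 CPM 14.5% and 11.9%, so the members' counts of 3 and 5 out of 35 lie near the background. All 14 chaperones had a more negative log2 fold change in HCC44, with a median difference of -0.38. Of all 21307 tested genes, 10176 had a more negative value there, and the median difference was 0.04. Neither value was taken among genes averaging 10 CPM or more, the closer background. Only 3 of the 14 chaperones were called, 21.4%, against the 11.9% above. The count of 5 was 2 without H1975 ACBI1 replicate 2, 3 without HCC44 DMSO replicate 2 or HCC44 ACBI1 replicate 2, and 9 without HCC44 ACBI1 replicate 1.

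Without ACBI1 most members were higher in HCC44 than in H1975. With DMSO, 26 were higher in HCC44, 4 were lower and 5 were not called, with a median log2 difference of 0.66, against 31.6% higher and 36.4% lower of all tested genes, at a median of -0.08, and 40.6% and 33.7% of those averaging 10 CPM or more. This compares 1 line with 1 line. HSP90B1 gave the largest difference (1.82 ± 0.09, edgeR adjusted p 2.79e-08), then ASNS (1.63), VLDLR (1.5), HYOU1 (1.48), DNAJC3 (1.38) and HSPA5 (1.2 ± 0.21, adjusted p 0.000846). SDF2L1 (-0.41), CRELD2 (-0.38), CEBPB (-0.32) and SHMT2 (-0.29) were lower in HCC44, and none of these 4 was called without HCC44 DMSO replicate 1. All 14 chaperones differed, 12 of them upward. These levels come from the same DMSO libraries as the responses, so the level and the response of a gene share their controls.

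Genes around the members were counted in the same way, and their counts are to be read against the shares of genes averaging 10 CPM or more, 24.2% lower and 14% higher in H1975 and 25.9% and 19.1% in HCC44. Of 12 sensors and activators of the unfolded protein response, 5 fell in each line and 1 rose in HCC44. ERN1, which encodes IRE1, was at 0.21 in H1975 and fell by 1.17 ± 0.14 in HCC44 (edgeR adjusted p 0.000117), with a difference of -1.38 ± 0.19 (adjusted p 0.00121). CREB3L2, a membrane-bound bZIP factor, fell by 1.21 in HCC44 and was at -0.23 in H1975 (adjusted p 0.0946). EIF2AK3, which encodes PERK, fell by 0.50 in H1975 and fell by 0.52 in HCC44 (adjusted p 0.00134). Of 15 eIF2 kinase, eIF2 and eIF2B genes, 5 fell and 3 rose in H1975, and 6 fell and 2 rose in HCC44, which is 33.3% and 20% of the list in H1975 and 40% and 13.3% in HCC44, within a few genes of those shares.

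Of 35 tested further ER folding and secretory genes, 11 fell and 3 rose in H1975 (median -0.16), and 22 fell in HCC44 (median -0.47). SSR3, a subunit of the translocon-associated complex, fell by 0.36 in H1975 and fell by 1.18 in HCC44. SEC61G, a small channel subunit, fell by 1.16 in HCC44 and was at -0.33 in H1975 (adjusted p 0.101). KDELR3, a receptor that returns ER proteins, rose by 0.71 ± 0.11 in H1975 (edgeR adjusted p 0.000919) and fell by 0.85 in HCC44. Of 20 further ER-associated degradation genes, 4 fell and 3 rose in H1975, and 12 fell and 2 rose in HCC44. The H1975 shares, 20% lower and 15% higher, are near the background, and the HCC44 shares are 60% and 10%. ERLEC1, an ER lectin, fell by 1.05 in HCC44 and was at -0.17 in H1975 (adjusted p 0.337).

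Of 27 tested further ATF4 target genes, 16 fell and 3 rose in H1975 (median -0.56), and 13 fell and 3 rose in HCC44 (median -0.23). NUPR1, a small stress-induced factor, fell by 2.59 and 3.68, from a mean of 9.19 to 1.53 CPM and from 6.93 to 0.538 CPM. NDRG1, a stress and hypoxia target, fell by 2.16 in H1975 and fell by 1.14 in HCC44. GDF15, a secreted stress cytokine, fell by 0.43 in H1975 and fell by 2.18 in HCC44. SLC38A2, a neutral amino acid transporter, was called lower in H1975 (-1.15) and rose by 0.59 in HCC44 (edgeR adjusted p 0.00206). PYCR1 and CEBPG rose by 0.48 and 0.42 in H1975, and CBS rose by 0.46 in HCC44. Of 20 cytosolic aminoacyl-tRNA synthetases, 3 rose and 3 fell in H1975 (median 0.01), and 10 fell in HCC44 (median -0.27). WARS1, the tryptophan enzyme, fell by 1.58 and 1.09, while FARSB and FARSA rose by 0.35 and 0.32 in H1975.

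Folding genes outside the ER were read as well. Of 12 cytosolic heat shock genes, 9 fell and 1 rose in H1975 (median -0.55), and 2 fell and 2 rose in HCC44 (median -0.18). HSPA8, the constitutive cytosolic Hsp70, fell by 0.99 ± 0.20 in H1975 (edgeR adjusted p 0.00728), from 1992 to 1001 CPM, and was at -0.20 in HCC44 (adjusted p 0.5), a difference that was not called (adjusted p 0.0905). Of 8 mitochondrial chaperones and proteases, 2 rose and 1 fell in H1975, and 2 fell in HCC44.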

How the data were processed

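RNA was measured in 8 libraries of 4 groups. The authors deposited 1 table of read counts per gene and library. The submitters' processing notes list TopHat2 2.1.1, HTSeq 0.11.0 and build hg38, and the annotation and strand setting are not given in the sources used here. The 5 summary rows, 14.3 to 15.8% of each table, were left out. edgeR 4.0.16 in R 4.3.3 was run on the deposited counts: filterByExpr kept 21307 genes, TMM factors set the library sizes, and all 8 libraries entered 1 fit of group means (4 residual degrees of freedom, common biological coefficient of variation 0.123). The test was edgeR's quasi-likelihood F-test, two-sided and with robust dispersion. A gene was called when its Benjamini-Hochberg adjusted p, taken over all tested genes, was under 0.05. The ± beside a log2 value is its standard error. The procedure was also run on simulated counts in which a small part of the genes changed in 1 line. That setting does not test the choice of scaling, and its outcome is not reported here.

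The members and lists were chosen with earlier results of these data known. All members are named. Of each other list, at most the 2 largest called rises and falls per line with 5 CPM or more as the mean of a group could be named, and a gene named for 1 line may have its value in the other line printed beside it. Exon lengths, overlaps and gene positions came from GENCODE release 29, where 35 of 35 members matched, and promoters from RefSeq, build GRCh38.p14, where 33 matched.

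No replicate pair was a copy: chi-square over degrees of freedom was 24 to 48.4 between the counts of a pair, well above sampling noise. Same-numbered libraries had deviations that correlated at 0.374 in H1975 and 0.109 in HCC44, but the labels name no shared batch and there are only 2 numbers, so the block was kept as an alternative. The others were DESeq2 1.42.0, RLE factors, upper-quartile factors, library totals, no filter, 1 CPM in 2 libraries, each line fitted alone, non-robust dispersion, an adjusted p under 0.01 and each library left out. Figures were drawn with matplotlib 3.10.9.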

Additional observations from a re-analysis of the deposited data

Results flagged for a closer look

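For 8 of the 35 stress response genes, edgeR's test of the difference between the lines (HCC44 log2 fold change minus that of H1975) gave an adjusted p under 0.05. The differences were -1.18 for SDF2L1, -0.73 for PPP1R15A, -0.62 for CANX, -0.58 for DDIT3 and -0.44 for HSP90B1, and 1.37 for ATF5, 1.1 for DDIT4 and 0.47 for PSAT1. The 3 more positive and 5 more negative differences among 35 members lie near the background, since 14.5% and 11.9% of genes averaging 10 CPM or more were called in these directions. SDF2L1, ATF5 and DDIT4 also passed an adjusted p of 0.01.

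Among the named genes of the other lists, the same test called the unfolded protein response regulators ERN1 (-1.38), CREB3L2 (-0.98) and MAP3K5 (0.61). It also called the translation initiation genes EIF2S3 (0.81), EIF2B2 (-0.72) and EIF2B3 (-0.76). Of the ATF4 targets it called GDF15 (-1.75), NDRG1 (1.02), SLC38A2 (1.73) and PYCR1 (-0.69), and of the tRNA synthetases FARSB (-0.52). EIF2B2 and PYCR1 overlap other genes over 23.6% and 29.7% of their exon bases. In the secretory and degradation lists it called KDELR3 (-1.56), SEC61G (-0.83), SSR3 (-0.83), SEC11C (-0.94), ERLEC1 (-0.88), VCP (0.63), HM13 (-0.57) and MAN1B1 (0.67). The heat shock genes DNAJA1 (0.60) and HSPB1 (0.75) and the mitochondrial protease CLPP (-0.48) were called as well. EIF2S3 and SLC38A2 were lower with ACBI1 in H1975 (-0.42 and -1.15) and rose in HCC44 (0.39 and 0.59), and KDELR3 went the opposite way (0.71 and -0.85).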

How the results depend on the processing

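Of the 35 members, 19 fell in H1975. Their number was 8 with library totals, 9 at an adjusted p under 0.01 and 7 to 18 with each library left out. With library totals the median log2 fold change of the H1975 chaperones turned from -0.11 to 0.09. The 24 falls in HCC44 numbered 16 to 24 with each library left out. No member rose in HCC44, while 2 did with upper-quartile factors, 3 with library totals, 1 with no filter, 2 with 1 CPM in 2 libraries, and 0 to 1 with each library left out. The more negative differences in HCC44, 5 in number, were 9 with DESeq2, 8 with RLE factors, 10 with library totals, 11 with no filter, 1 at an adjusted p under 0.01 and 2 to 9 with each library left out. The 3 more positive ones were 5 with no filter. The 4 members lower in HCC44 with DMSO were 2 at an adjusted p under 0.01 and 0 to 5 with each library left out.

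With the replicate number as a block, 4 members rose in HCC44 (ATF5, CHAC1, SESN2 and PSAT1), 10 differences were more negative and 5 more positive in HCC44, and no H1975 call was lost. Same-numbered libraries share only a number in the labels. A lone library left in a group was taken to vary like the other groups. The difference between the lines has no value with each line fitted alone. With 2 libraries a group, small changes are not resolved, and the cause of these shifts was not tested.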
